A study of Mus musculus with 12 samples.

Results

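Of the RNAs measured in HA pull-down and input of cultured sensory neurons, 10 named RNAs were taken that are usually treated as not translated, namely Malat1, Neat1, Miat, Meg3, Rian, Mirg, Snhg11, Gas5, Snhg1 and Rn45s. They were chosen by symbol, as rows present in the count tables of both genotypes, and the rule itself uses no measured value, although earlier results of these data were known when it was set. Of the 10, 9 were found in both tables, which list 9112 genes for the libraries labelled Cre+ and 14177 for those labelled Cre-, and all 9 passed the filter on a mean FPKM above 1. Mirg is not a row of either table and has no value here. The cells were dorsal root ganglion (DRG) neurons of all ganglia from male mice, labelled 3 to 6 months old, kept in culture for 24 h. All mice carried the tag allele as Rpl22HA/HA, which gives a ribosomal protein with an HA epitope wherever Cre recombinase acts, and the groups were Runx3-Cre+ mice and Runx3-Cre- littermates, the latter sequenced as a background control. Runx3 drives Cre in proprioceptive neurons. For each genotype there were 3 HA pull-downs and 3 inputs, the input being 10% of the lysate, and each sample pooled the neurons of 5 mice.

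Long noncoding RNAs such as Malat1 and Neat1 are retained in the nucleus, Malat1 in splicing speckles and Neat1 as the scaffold of paraspeckles, so ribosomes in the cytoplasm are not expected to carry them. Meg3, Rian and Mirg are expressed from the maternal copy of the imprinted Dlk1-Dio3 region and are abundant in neurons, where their introns give rise to small RNAs. Gas5 and Snhg1 are host genes for small nucleolar RNAs. Their spliced remainders leave the nucleus, meet ribosomes and are broken down by nonsense-mediated decay, so they are not free of ribosomes in the strict sense. Rn45s is the precursor that holds the ribosomal RNAs, which are part of the particle that the HA antibody pulls down. A depletion step for ribosomal RNA is named in the methods, while the sample labels name another library kit and no such step, so it is not settled whether these libraries were depleted.

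The libraries held between 8886308 and 18633365 counts on genes of the tables. Levels below are normalized counts, that is counts per 1000000 of a TMM-adjusted library. Pull-down and input were compared in each genotype with edgeR's quasi-likelihood test, and a gene was called at an adjusted p (FDR) below 0.1 with at least a 2-fold change. Runx3, the driver gene, had a log2 fold change of 1.55 (edgeR, FDR = 0.309) in the libraries labelled Cre+ and of 3.52 (edgeR, FDR = 0.000236) in those labelled Cre-, so Cre+ and Cre- here are names taken from the deposited labels. The 6 measured proprioceptor markers of 8 summed to 316 to 436 normalized counts in the Cre+ inputs and 722 to 905 in the Cre+ pull-downs, and to 381 to 411 and 1351 to 1664 in Cre-. In Cre+ 1 of the 6 was enriched (Ntrk3), and Spp1 went from 94.3 to 48.7 on average without passing the test. In Cre- 6 of 8 tested were enriched and 1 (Fxyd7) was depleted. The difference in enrichment, Cre+ minus Cre-, was -1.93 for Runx3 (edgeR, FDR = 0.302) and was not called. Of the 6 markers, 0 were called higher in Cre+ and 2 lower, against 2.33% and 2.03% of genes. The 2 were Etv1 (-2.41, edgeR, FDR = 0.0156) and Spp1 (-3.59, edgeR, FDR = 0.0026). The 11 neuronal markers in the tables had a summed level of 21730 to 28673 in the Cre+ inputs, 23133 to 25886 in the Cre+ pull-downs, 24049 to 28888 in the Cre- inputs and 47742 to 54718 in the Cre- pull-downs. Nefl, Nefm and Snap25 make up most of the Cre- sums. Of the 11 there, 3 were enriched and 0 depleted, against 6.01% and 5.83% of all tested genes. The 3 were Nefm (1.29, edgeR, FDR = 0.000142), Nefh (1.35, edgeR, FDR = 5.2e-05) and Snap25 (1.17, edgeR, FDR = 0.000275). The median log2 fold change of the 11 in Cre- was 0.14, with Rbfox3 at -0.76 (edgeR, FDR = 0.0045) and under the 2-fold limit. In Cre+ that median was -0.18, and 0 of the 11 were enriched and 2 depleted, against 4.72% and 2.19% of all tested genes. The 2 were Tubb3 (-1.19, edgeR, FDR = 0.0448) and Uchl1 (-1.85, edgeR, FDR = 0.0342). Among the inputs no gene was called between genotypes (edgeR), and 18 genes (0.201%) had an unadjusted p under 0.05, or 179 (2%) when the 6 inputs were fitted alone. None of the 9 noncoding RNAs differed there by more than 0.50 on the log2 scale in either fit.

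The 9 RNAs did not move as 1 group. In the libraries labelled Cre+, 4 of the 9 were enriched in the pull-down (Malat1, Meg3, Snhg11 and Rian) and none was depleted, while 4.72% of the 8947 tested genes were enriched and 2.19% depleted. No depletion was called by DESeq2 or the exact test either, but 1 was with scaling by library size or without the fold limit (Rn45s) and 1 in a fit of all 12 libraries (Snhg1), and these 2 had an unadjusted p under 0.05. Rn45s had an FDR below 0.1 there with less than a 2-fold change, and 2.32% of genes had such an FDR with a fall of any size. Without Cre+ input 1, 2 or 3 the 4 enriched RNAs became 0, 1 and 0. Over all tested genes the 422 enriched became 7, 59 and 4. In the libraries labelled Cre-, Meg3 was enriched and Gas5 and Snhg1 were depleted, against 6.01% and 5.83% of 11526 tested genes. The median log2 fold change of the 9 was 2.36 in Cre+ and 0.55 in Cre-, and that of all tested genes was 0.08 and -0.04. Without Cre+ pull-down 1 the median of the 9 was 1.26, and without Cre- pull-down 1 it turned to -0.31. In Cre+ all 3 pull-downs lay above all 3 inputs for 5 of the 9 and below for 1, against 15.5% and 17.9% of all tested genes. In Cre- this held for 1 above and 4 below, against 18.2% and 18.6%. Because some of them are known to meet or form ribosomes, they are called noncoding RNAs below and not RNAs that stay off ribosomes. In these bulk lysates fewer cells of a type and less RNA per cell cannot be told apart.

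**Figure D1:**
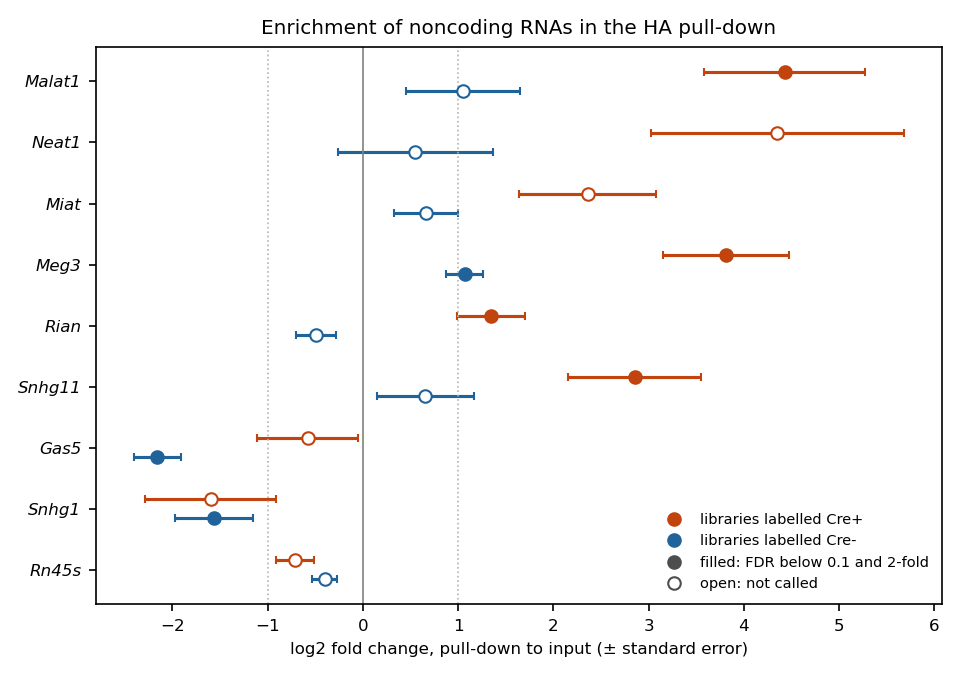
Enrichment as log2 fold change, pull-down over input (x axis, ± standard error, 3 against 3 libraries), for the 9 noncoding RNAs in the libraries labelled Cre+ (red) and Cre- (blue), with filled points for calls at FDR below 0.1 and 2-fold and dotted lines at a 2-fold change. The 6 RNAs from Malat1 to Snhg11 lie between 1.35 and 4.43 in Cre+ and between -0.49 and 1.07 in Cre-, and Gas5, Snhg1 and Rn45s lie below 0 in both.

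Malat1 lies on chromosome 19 of GRCm38 from 5795690 to 5802672, as 1 exon, of which 7.72% overlaps other annotated genes (no source here says that counting used strand). It had 1087, 751 and 1024 normalized counts in the Cre+ inputs and 50505, 5349 and 5767 in the Cre+ pull-downs. Every pull-down was above every input, with pull-down 1 far above the other 2. This was a log2 fold change of 4.43 (standard error 0.85, edgeR, FDR = 0.0401), and without Cre+ pull-down 1 it was 2.58 (edgeR, FDR = 0.0015). The call was lost without Cre+ input 1, 2 or 3, where the FDR was 0.217, 0.169 and 0.16 and the log2 fold change 4.28 to 4.53. Malat1 took 0.0889% to 0.125% of all counts in the Cre+ inputs, 3.97% in pull-down 1 and 0.494% and 0.5% in the other 2.

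In the libraries labelled Cre-, Malat1 had 1155, 1139 and 1345 normalized counts in the inputs and 5020, 1305 and 1220 in the pull-downs. Pull-down 1 was the high one again, and the other 2 lay within the range of the inputs. The fitted log2 fold change was 1.05 (standard error 0.60, edgeR, FDR = 0.307). Without Cre- pull-down 1 it was 0.08, and without Cre- pull-down 2 it was 1.36 and passed the threshold (edgeR, FDR = 0.0963), as it did with edgeR's exact test (FDR = 0.0578).

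Neat1, on chromosome 19 from 5824708 to 5845480, had the fewest counts of the 9. In Cre+ it passed the filter on mean FPKM only through the pull-downs (about 0.701 for the inputs). It thus had to be higher in the pull-downs to be tested there, which limits every Cre+ test of Neat1 below. The fits of all 12 libraries used the mean FPKM of both labels, with inputs at about 0.701 in Cre+ and 1.05 in Cre-. Neat1 passed that filter only through the pull-downs as well, which limits its differences and the counts and medians that hold it. It had 10, 43 and 53 counts in the Cre+ inputs and 1140, 112 and 19 in the Cre+ pull-downs, which is 0.873, 2.77 and 3.27 against 127, 13.7 and 2.19 normalized counts. Pull-downs 1 and 2 were above all inputs and pull-down 3 was among them. Its log2 fold change of 4.35 (standard error 1.33, edgeR, FDR = 0.103) did not pass the threshold, and without Cre+ pull-down 3 it was 4.93 and did (edgeR, FDR = 0.0888). Without Cre+ pull-down 1 it was 1.81 (edgeR, FDR = 0.204). It also passed with DESeq2 (FDR = 0.00123), the exact test (FDR = 0.00951) and in the fit of all 12 libraries (edgeR, FDR = 0.0267). In the Cre- libraries it had 20, 11 and 57 counts in the inputs and 137, 13 and 27 in the pull-downs, and the groups overlapped (log2 fold change 0.55, standard error 0.81, edgeR, FDR = 0.692). Without Cre- pull-down 1 the sign turned, to -0.72 (edgeR, FDR = 0.585).

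Miat, a neuronal RNA of nuclear domains on chromosome 5 from 112213228 to 112228948, had 29.7, 9.87 and 15.9 normalized counts in the Cre+ inputs and 198, 40.6 and 45.6 in the Cre+ pull-downs. The groups did not overlap, and pull-down 1 was again the highest. Miat had a log2 fold change of 2.36 (standard error 0.72, edgeR, FDR = 0.103), just outside the threshold. It was 2.74 without Cre+ pull-down 2 (edgeR, FDR = 0.092) and 1.26 without Cre+ pull-down 1 (edgeR, FDR = 0.153). Miat passed with DESeq2 (FDR = 0.00748), the exact test (FDR = 0.0213) and in the fit of all 12 libraries (edgeR, FDR = 0.0176). In Cre- it was 0.66 (standard error 0.33, edgeR, FDR = 0.197), from 16.5, 17.2 and 24.3 in the inputs to 44.2, 30.2 and 17.5 in the pull-downs. Of its exon bases, 30.4% overlap other annotated genes, the largest share among the 8 RNAs with a gene model here.

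Meg3 (chromosome 12, 109540996 to 109571729) was the only one of the 9 RNAs enriched in both genotypes. Its normalized counts were 58.6, 44.1 and 65.2 in the Cre+ inputs and 1703, 275 and 381 in the Cre+ pull-downs. All pull-downs lay above all inputs, the lowest of them more than 4-fold above the highest input. Meg3 thus had a log2 fold change of 3.81 (standard error 0.66, edgeR, FDR = 0.0342) which stood at 2.59 without Cre+ pull-down 1 (edgeR, FDR = 0.0045). It lost its call without Cre+ input 1 (edgeR, FDR = 0.187) or 3 (edgeR, FDR = 0.127) and kept it without input 2. In Cre- the inputs had 70.1, 69.2 and 75.7 and the pull-downs 192, 135 and 123, again without overlap. There its log2 fold change was 1.07 (standard error 0.20, edgeR, FDR = 0.00315), and without Cre- pull-down 1 it was 0.87 (edgeR, FDR = 0.00201), under the 2-fold limit. The Cre- call was also lost with scaling by library size alone (0.84, edgeR, FDR = 0.0147) and in the fit of all 12 libraries (1.04, edgeR, FDR = 0.316).

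Rian, transcribed downstream of Meg3 (chromosome 12, 109603945 to 109661716) and host to many small nucleolar RNAs, moved in opposite directions by label. It had 65.4, 54.7 and 77.1 normalized counts in the Cre+ inputs and 231, 144 and 126 in the Cre+ pull-downs. All pull-downs were above all inputs and the 3 pull-downs lay closer together than those of Malat1 or Meg3, with pull-down 1 at 1.71 times the mean of the other 2. Its log2 fold change of 1.35 (standard error 0.36, edgeR, FDR = 0.08) lost its call without Cre+ input 1, 2 or 3 (edgeR, FDR = 0.297, 0.255 and 0.222) and with scaling by library size alone (0.88, edgeR, FDR = 0.147) or by the upper quartile (1.12, edgeR, FDR = 0.109). In Cre- it had 64.1, 63.2 and 73.5 in the inputs and 36.7, 57.1 and 48.8 in the pull-downs, all pull-downs below all inputs, a log2 fold change of -0.49 (standard error 0.21, edgeR, FDR = 0.131) that did not pass the threshold.

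Snhg11, a neuronal host of small nucleolar RNAs on chromosome 2 from 158375713 to 158386474, is a long noncoding RNA in RefSeq, while GENCODE M21 calls it protein-coding. It had 77.8, 47.4 and 58.6 normalized counts in the Cre+ inputs and 1005, 143 and 181 in the Cre+ pull-downs, all above the inputs. This gave a log2 fold change of 2.86 (standard error 0.70, edgeR, FDR = 0.0669). Without Cre+ pull-down 1 it was 1.44 (edgeR, FDR = 0.033), and the call was lost without Cre+ input 1, 2 or 3 (edgeR, FDR = 0.287, 0.184 and 0.191). In Cre- only pull-down 1 stood out, with 166 against 46.9 and 46.3 in the other 2 pull-downs and 48.7, 49.5 and 66.6 in the inputs. Its log2 fold change there was 0.65 (standard error 0.51, edgeR, FDR = 0.437) and turned to -0.22 without that library (edgeR, FDR = 0.51).

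**Figure D2:**
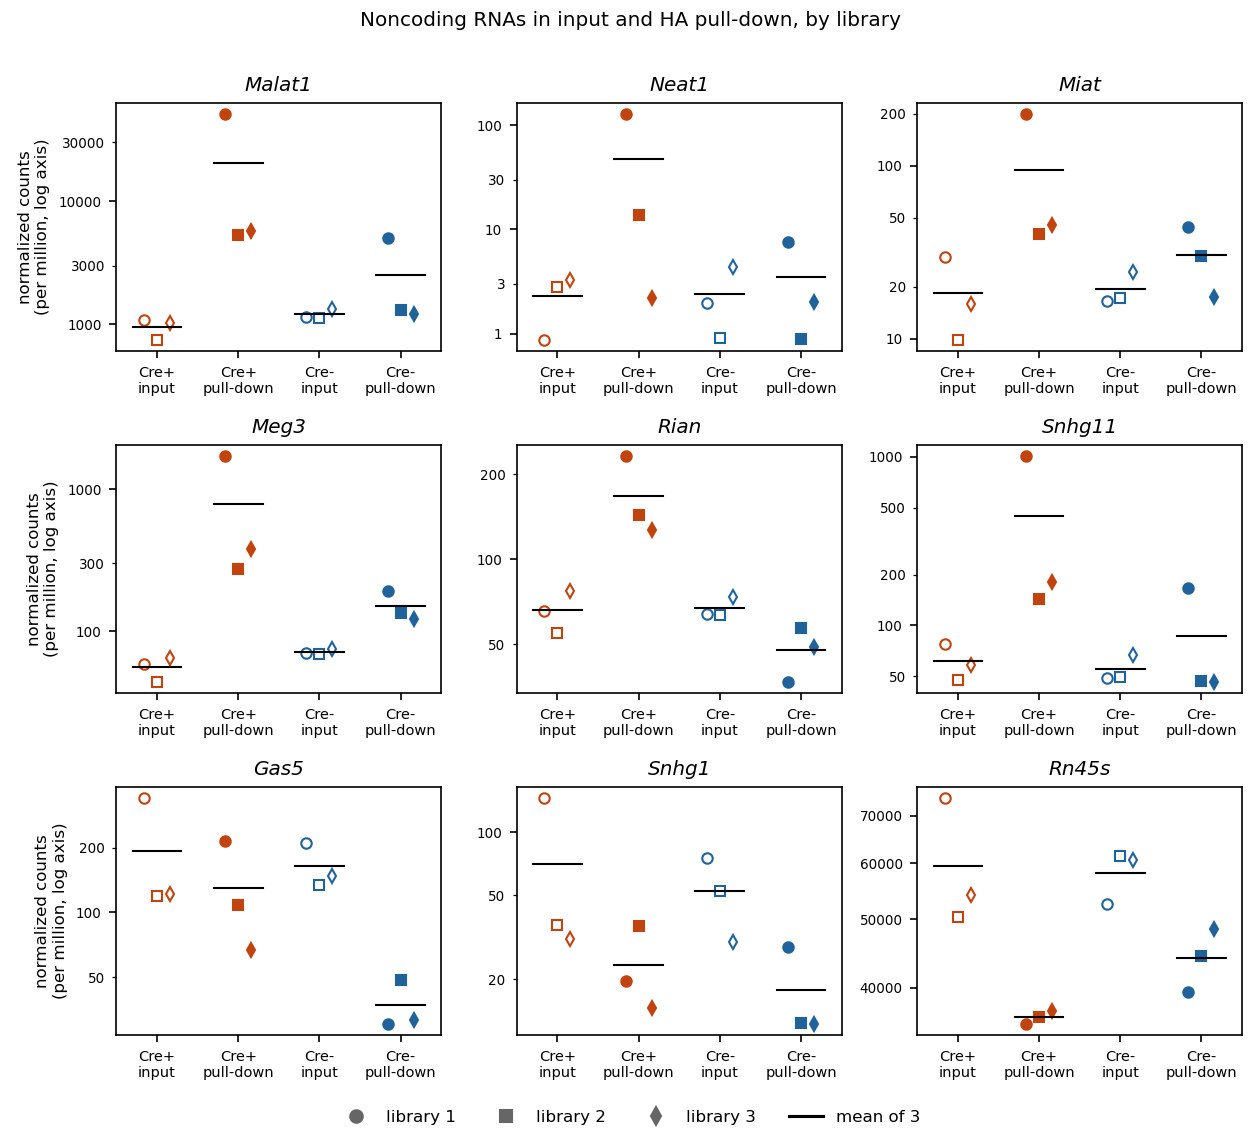
Normalized counts (per 1000000 counts, log axis) of the 9 noncoding RNAs in every library, with open symbols for inputs, filled symbols for pull-downs, a circle, square and diamond for libraries 1, 2 and 3, and a line at the mean of 3. Pull-down 1 is the highest of its group for Malat1, Neat1, Miat, Meg3 and Snhg11 under both labels, and for Gas5 all Cre- pull-downs (30.3 to 48.7) lie below all inputs (134 to 211).

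Gas5 and Snhg1 went the other way. Gas5 (chromosome 1, 161034601 to 161038539) had 211, 134 and 148 normalized counts in the Cre- inputs and 30.3, 48.7 and 31.7 in the Cre- pull-downs, every pull-down below every input. Its log2 fold change of -2.16 (standard error 0.24, edgeR, FDR = 0.000137) was undercut by 0.79% of the tested genes, and it was between -2.43 and -1.93 under every alternative tried. In the Cre+ libraries it had 339, 119 and 122 in the inputs and 214, 108 and 66.7 in the pull-downs, which overlap. Its log2 fold change there was -0.58 (standard error 0.53, edgeR, FDR = 0.531) and turned to 0.10 without Cre+ input 1 (edgeR, FDR = 0.951). Of the exon bases of Gas5, 17.8% overlap other annotated genes, Snord47, Snord78 and Snord80 among them.

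Snhg1 (chromosome 19, 8723487 to 8726326) had 75.3, 52.5 and 30.2 normalized counts in the Cre- inputs and 28.6, 12.4 and 12.3 in the Cre- pull-downs. The pull-downs were all below the inputs, though the highest pull-down lay just under the lowest input. This was a log2 fold change of -1.56 (standard error 0.41, edgeR, FDR = 0.0242) and was -2.07 without Cre- pull-down 1 (edgeR, FDR = 0.000657). The call was lost in the fit of all 12 libraries (-1.59, edgeR, FDR = 0.2). In Cre+ the inputs had 145, 36 and 30.9 and the pull-downs 19.7, 35.7 and 14.5, and the groups overlapped. A log2 fold change of -1.60 (standard error 0.69, edgeR, FDR = 0.2), close in size to that of Cre-, did not pass the threshold, and it was -0.52 without Cre+ input 1, the high one (edgeR, FDR = 0.754).

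Messages of the translation machinery and several hosts of small nucleolar RNAs are known to start with a C and a run of pyrimidines, the terminal oligopyrimidine tract. The 30 bases around the annotated starts of Gas5 (its downstream start of the 2 in RefSeq), Snhg1 and Snhg12, the noncoding hosts called depleted in Cre-, are therefore shown beside those of Malat1 and Meg3, from RefSeq on GRCm38.p6 as 10 bases before the start and 20 from it. Capitals mark the unbroken run of C and T that holds the first base, with any such bases before the start included and with no C required. The windows lie at chr1:161035156-161035185, chr19:8723477-8723506, chr4:132308668-132308697, chr19:5802653-5802682 (minus strand) and chr12:109540986-109541015.
Gas5: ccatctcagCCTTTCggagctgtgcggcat
Snhg1: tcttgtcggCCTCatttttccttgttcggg
Snhg12: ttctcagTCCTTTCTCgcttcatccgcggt
Malat1: ggctctgcgTCaggcattcaggcagcgaga
Meg3: gccagcccctagcacagaagacgaagagct

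The run, counted with bases before the start, was 6 bases in Gas5, 4 in Snhg1, 9 in Snhg12, 2 in Malat1 and 0 in Meg3. Part of the run lies before the annotated start in Gas5, Snhg1, Snhg12 and Malat1. The annotated first base is C in Gas5, Snhg1 and Malat1 and T in Snhg12, so Snhg12 does not start with a C there. A run of 4 or more was found at 13.97% of 32851 annotated starts and at 35.7% of 70 starts of ribosomal protein genes, and a run of 6 or more at 7.25% and 28.6%. Miat, which was not depleted, has a run of 7. The upstream start of Gas5 and the start of Snhg11 have a run of 0, and that of Rian has 3. Starts were taken as annotated, and the one used in these neurons was not measured.

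Rn45s, the ribosomal RNA precursor, took 5.96% to 8.53% of counts in the Cre+ inputs and 2.80% to 3.35% in the Cre+ pull-downs. Its normalized counts were 74119, 50359 and 54095 in those inputs and 35565, 36328 and 37136 in those pull-downs, which lay closer together than those of any other of the 9 RNAs in that group. Every pull-down was below every input, with a log2 fold change of -0.71 (standard error 0.20, edgeR, FDR = 0.0885). In Cre- the inputs had 52558, 61397 and 60635 and the pull-downs 39431, 44377 and 48436, again without overlap, and the log2 fold change was -0.40 (standard error 0.13, edgeR, FDR = 0.0529), where 11.1% of genes had an FDR below 0.1 with a fall of any size. Both changes were smaller than 2-fold, and with 1 library left out the FDR was 0.104 to 0.226 in Cre+ and 0.0305 to 0.181 in Cre-. Rn45s is a repeated gene with no entry in the annotation used here, only uniquely mapped reads were counted, and any removal of ribosomal RNA before sequencing would act on it too, so its level is not that in the cells. With scaling by library size alone the Cre+ value was -1.15 (edgeR, FDR = 0.0398), past 2-fold.

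The enrichments of both labels were then compared directly, as the difference of the 2 log2 fold changes in a fit of all 12 libraries. It was positive for 8 of the 9 RNAs, with a median of 1.87 against 0.13 over all 8954 tested genes. Neat1 is among the 8, under the limit of the filter given above. Leaving out Cre+ pull-down 1 brought that median of the 9 RNAs to 1.06. The difference passed the threshold for 2, against 2.33% of genes higher in Cre+ and 2.03% higher in Cre-. These were Rian, with a difference of 1.87 (standard error 0.41, edgeR, FDR = 0.0402), and Meg3, with 2.77 (standard error 0.70, edgeR, FDR = 0.0689). The difference was 3.39 for Malat1 (edgeR, FDR = 0.103), 3.81 for Neat1 (edgeR, FDR = 0.221), 2.22 for Snhg11 (edgeR, FDR = 0.205), 1.72 for Miat (edgeR, FDR = 0.279) and 1.61 for Gas5 (edgeR, FDR = 0.196), none of which passed. It was 0.01 for Snhg1 (standard error 0.84) and -0.27 for Rn45s (standard error 0.21).

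Without Cre+ pull-down 1 the difference was 1.54 for Malat1, 1.26 for Neat1, 0.80 for Snhg11, 0.61 for Miat and 1.06 for Gas5, none of them called. Malat1 passed without Cre+ pull-down 2 (3.84, edgeR, FDR = 0.0391), Cre+ pull-down 3 (3.83, edgeR, FDR = 0.0475) or Cre- pull-down 1 (4.38, edgeR, FDR = 0.0593). Snhg11 passed without Cre+ pull-down 2 or Cre- pull-down 1 (edgeR, FDR = 0.0779 and 0.0966), and Neat1 and Gas5 without Cre+ pull-down 3 (edgeR, FDR = 0.0826 and 0.0868). The 2 calls of the difference were also sensitive to single libraries. Rian lost its call without Cre+ input 2 (edgeR, FDR = 0.106), Cre- input 2 (0.121), Cre- input 3 (0.126) or Cre- pull-down 3 (0.135), while its difference stayed between 1.58 and 2.04 with any 1 library left out. Meg3 lost its call when any single input was left out, and without Cre- pull-down 2 or 3 (edgeR, FDR = 0.128 to 0.191), and its difference was 1.53 without Cre+ pull-down 1 (edgeR, FDR = 0.0172). Without both pull-downs numbered 1, a setting added after the values were seen, 4 of the 9 passed, namely Malat1 (2.52, edgeR, FDR = 0.000583), Snhg11 (1.67, edgeR, FDR = 0.0227), Meg3 (1.73, edgeR, FDR = 0.0109) and Rian (1.41, edgeR, FDR = 0.0254). In that setting calls rose over all genes too, to 689 higher in Cre+ and 592 higher in Cre-, from 209 and 182 with all libraries.

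In the pull-downs alone, set against each other between labels, Rian was higher in Cre+ by 1.90 (standard error 0.37, edgeR, FDR = 0.0553) when only the 6 pull-downs were fitted, and the other 8 were not called. There 1.36% of genes were higher in Cre+ and 1.5% in Cre-. In the fit of all 12 libraries 7 of the 9 were higher in the Cre+ pull-downs, by 1.73 to 3.83 on the log2 scale (edgeR, FDR = 0.00219 to 0.0716), and Snhg1 and Rn45s were not called, against 10.8% and 7.14% of genes. The value of 3.83 is that of Neat1, which passed the filter only through the pull-downs.

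Pull-down 1 was the highest of its group under both labels for Malat1, Neat1, Snhg11, Meg3 and Miat. In Cre+ its normalized count was 15.97 times the mean of the other 2 for Neat1, 9.09 times for Malat1, 6.20 times for Snhg11, 5.19 times for Meg3 and 4.60 times for Miat. Over all 8947 tested genes the same ratio ran from 0.103 at the lowest 5% to 5.82 at the highest 5%, with a median of 0.938. In Cre- it was 5.29 for Neat1, 3.98 for Malat1, 3.56 for Snhg11, 1.85 for Miat and 1.49 for Meg3, and the range over all genes was narrower, from 0.454 to 2.51. Rn45s was at 0.968 and 0.85. The 2 measured macrophage markers of 6 (Cd68 and Csf1r) summed to 115 in Cre+ pull-down 1 and to 17.8 and 5.10 in the other 2, and to 53.9 in Cre- pull-down 1 and 23.1 and 25.3 in the other 2, and their inputs had 26.9 to 70.7 and 34.9 to 115. The 4 measured fibroblast markers of 6 summed to 78.5, 78.8 and 70.2 in the Cre+ pull-downs and to 81.2, 26.7 and 24.3 in the Cre- pull-downs, and the 4 measured glial markers of 8 to 332, 243 and 177 and to 487, 533 and 565. Aif1 and C1qa are rows of neither table, and Fabp7, a glial marker listed in the Cre- table only, had a library at 0 there. In Cre- 1 of 6 glial markers tested (Fabp7, -3.09, edgeR, FDR = 0.0491) was depleted. The same held for 1 of 5 fibroblast markers (Col1a1, -1.34, edgeR, FDR = 0.0347), against 5.83% of all tested genes. None of the glial, fibroblast or macrophage markers tested in Cre+ was called (edgeR). The part of these cells in the values of pull-down 1 was not tested.

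**Figure D3:**
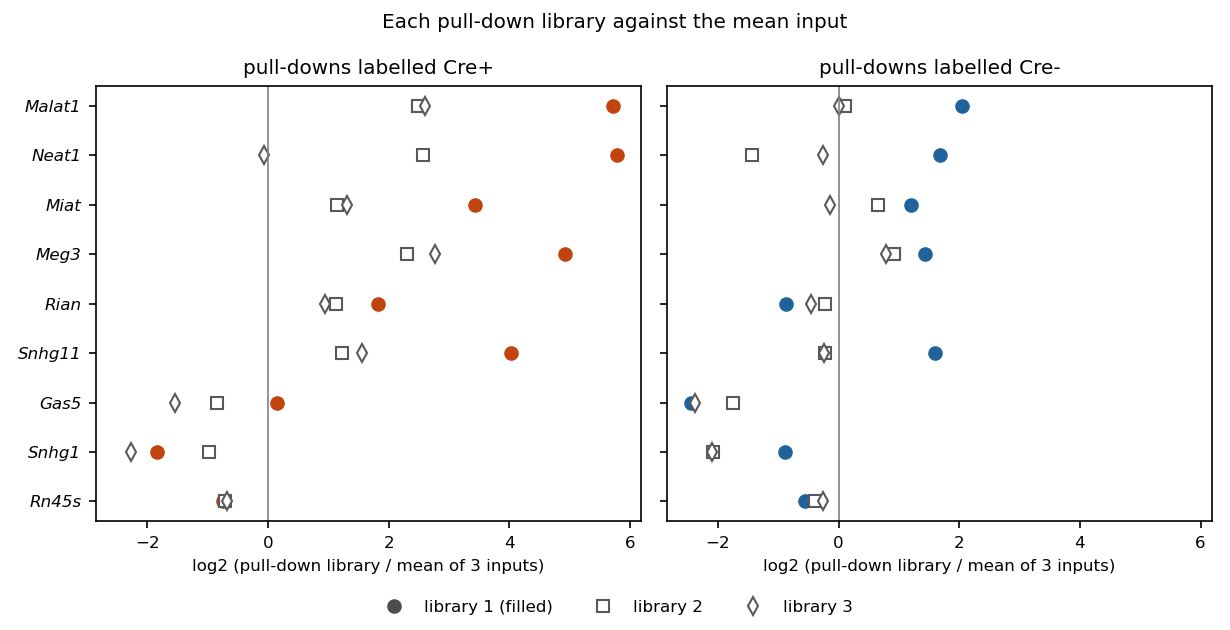
Log2 ratio of each pull-down library to the mean of its 3 inputs (x axis) for the 9 noncoding RNAs, with library 1 filled and libraries 2 and 3 open, and with the labels Cre+ (left) and Cre- (right). For Malat1 library 1 is at 5.73 in Cre+ and 2.05 in Cre-, and libraries 2 and 3 are at 2.49 and 2.60 in Cre+ and 0.11 and 0.01 in Cre-.

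The 9 RNAs differ in length, and length moved with the fold change across all genes. Spearman's rho between the log2 fold change and the longest annotated transcript (GENCODE M21) was 0.519 over 8905 genes in Cre+ and 0.345 over 11469 genes in Cre-. These are descriptions across genes of the same libraries, which are not independent. The rho with GC content was 0.01 and -0.02. In Cre+ 32.3% of 711 genes with a transcript over 8000 bases were enriched, and of 625 genes under 1500 bases 0.48% were. In Cre- 21.0% of 729 genes over 8000 bases were enriched, and 1.72% of 1279 genes under 1500 bases.

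The longest transcripts of Neat1, Meg3, Miat, Rian, Malat1 and Snhg11 have 20771, 14548, 9163, 8089, 6983 and 5864 bases, and those of Snhg1 and Gas5 have 2728 and 2556. In Cre+ the log2 fold changes of Malat1 (4.43) and Snhg11 (2.86) were above the median of 0.62 for 1904 genes of 5000 to 8000 bases, as were those of Neat1, Meg3 and Miat above the median of 1.20 over 8000 bases, and Rian at 1.35 was near it. In Cre- the medians of these classes were 0.19 and 0.51, with Malat1 (1.05), Snhg11 (0.65) and Meg3 (1.07) above, Neat1 (0.55) and Miat (0.66) near and Rian (-0.49) below the median of its class. Gas5 at -2.16 and Snhg1 at -1.56 in Cre- were below the median of -0.21 for 3326 genes of 1500 to 3000 bases. In Cre+ that class had a median of -0.52, with Gas5 (-0.58) near it and Snhg1 (-1.60) below. The lengths that the deposited FPKM imply are shorter for some, about 2.09 kb for Meg3, 2.98 kb for Neat1, 3.97 kb for Rian and 0.458 kb for Snhg1 in the Cre+ table, so the authors' gene models for these are not the longest ones. The part of length in these values was not tested.

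**Figure D4:**
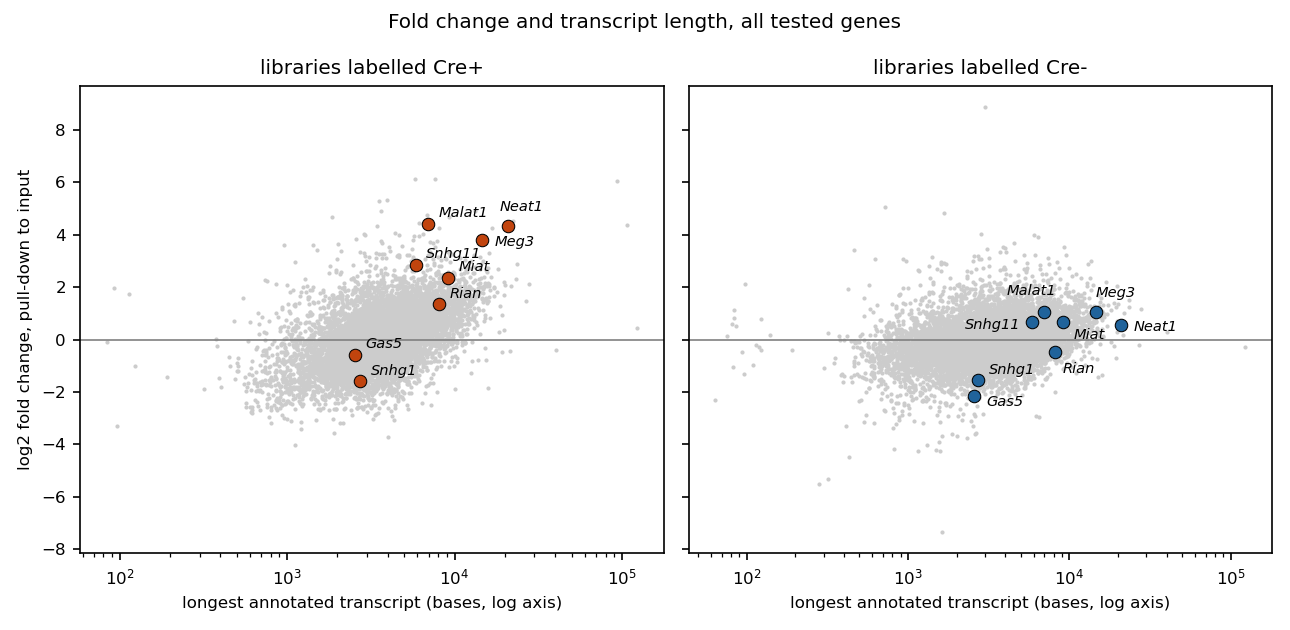
Enrichment as log2 fold change, pull-down over input (y axis), against the longest annotated transcript in bases (log axis) for all tested genes (grey) and 8 noncoding RNAs (coloured, named), in the libraries labelled Cre+ (left) and Cre- (right). Longer genes lie higher under both labels (rho of 0.519 and 0.345), and Malat1, Neat1 and Meg3 lie between 3.81 and 4.43 in Cre+ and Gas5 at -2.16 in Cre-.

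The RNAs also differ in internal runs of A, and the longest such run was read from the longest GENCODE M21 transcript of each RNA. The 3 with the longest runs, all enriched in Cre+, and Gas5 and Snhg1 are shown as 30 bases with the run in capitals. The windows are bases 413 to 442 (Meg3), 5302 to 5331 (Rian), 6665 to 6694 (Malat1), 715 to 744 (Gas5) and 810 to 839 (Snhg1) of their transcripts.
Meg3: caagaccAAAAAAAAAAAAAAAAcaaaaac
Rian: attgctcAAAAAAAAAAAAAAAccattgat
Malat1: cctagctttAAAAAAAAAAAAgcaaaagac
Gas5: aagggatttctgAAAAAcacttttctgagg
Snhg1: agtggagaaaacAAAAAttctctgagtagc

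The runs were 16 bases in Meg3, 15 in Rian, 12 in Malat1, 8 in Snhg11, 7 in Neat1, 5 in Gas5 and Snhg1 and 4 in Miat. A run of at least 12 was found in 12.4% of 11040 tested genes. Of genes over 8000 bases in Cre+, the median log2 fold change was 1.02 for 229 genes with a run of 12 or more and 1.27 for 442 with a shorter one, and of genes of 5000 to 8000 bases it was 0.58 for 380 and 0.61 for 1419. In Cre- the medians were 0.44 and 0.56 over 8000 bases and 0.10 and 0.20 from 5000 to 8000 bases. The part of A runs in the values of the 9 RNAs was not tested.

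The Cre+ table lists no gene with fewer than 5 counts in any of its libraries, whereas 864 genes of the Cre- table have a library at 0, so RNAs emptied from a pull-down can be seen only in Cre-. Beyond the 9 RNAs, 61 other noncoding RNAs had been listed, of which 14 were tested in Cre+ and 17 in Cre-. In Cre+ 2 were enriched and 0 depleted (edgeR, with 3 and 0 at an unadjusted p under 0.05), against 4.72% and 2.19% of all tested genes, and the median log2 fold change was 0.01. Kcnq1ot1, the imprinted antisense RNA of the Kcnq1 region, had 3.58, 2.84 and 4.81 normalized counts in the inputs and 677, 31.3 and 31.3 in the pull-downs, with pull-down 1 apart as for Malat1, a log2 fold change of 6.04 (standard error 1.25, edgeR, FDR = 0.0472). Its mean FPKM of 1.38 passed the filter through the pull-downs alone (about 0.0412 for the inputs), so it had to differ to be tested, and in Cre-, at 0.202, it was not tested. It lies across Kcnq1, and reads of both cannot be told apart without strand. Peg13, an imprinted RNA of brain, had 128, 142 and 140 in the inputs and 261, 383 and 317 in the pull-downs, here with pull-down 1 the lowest (log2 fold change 1.23, standard error 0.27, edgeR, FDR = 0.054).

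In Cre- 0 of the 17 were enriched and 3 depleted (edgeR, with 1 and 4 at an unadjusted p under 0.05), against 6.01% and 5.83% of all tested genes, and the median was -0.44. Snhg12, another host of small nucleolar RNAs, had 19.9, 4.87 and 5.38 normalized counts in the inputs and 3.46, 4.40 and 1.49 in the pull-downs (log2 fold change -1.68, standard error 0.61, edgeR, FDR = 0.0818). In Cre+ its inputs had 27.3, 4.39 and 7.28 and its pull-downs 1.22, 3.29 and 5.20, which overlap (edgeR, FDR = 0.213). Rpph1, the RNA of RNase P, had 238, 167 and 252 counts in the inputs and 1, 6 and 13 in the pull-downs (log2 fold change -5.34, standard error 0.65, edgeR, FDR = 0.000254). Rmrp, the RNA of RNase MRP, had 26, 17 and 46 counts in the inputs and 0, 0 and 2 in the pull-downs. The mean FPKM of Rmrp, 4.57, passed the filter through the inputs alone (about 8.96 for the inputs). Rmrp thus had to be lower in the pull-downs to be tested, which limits its place among the 3 depleted. The ratio of its summed counts per library total, pull-down to input, was 0.0147 (95% exact interval 0.00176 to 0.0548, for counting error only). Rpph1 and Rmrp had the lowest fold changes of the 17 listed noncoding RNAs tested in Cre-, that of Rmrp under this limit of the filter.

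Over all RefSeq long noncoding RNAs other than the members, 141 were tested in Cre+, and their median log2 fold change was 0.44. Of these 7 (4.96%) were enriched and 0 depleted (edgeR, with 24 and 3 at an unadjusted p under 0.05). Protein-coding genes had a median of 0.07, and 4.69% of 8734 were enriched and 2.21% depleted. In Cre- the 286 long noncoding RNAs had a median of -0.10 with 5.94% enriched and 5.24% depleted, and 11125 protein-coding genes had -0.04 with 6.01% and 5.82%. The difference between these classes was not tested.

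Protein-coding genes that share a feature with the 9 RNAs were counted the same way. Of all tested genes 4.72% were enriched and 2.19% depleted in Cre+ (14.03% and 9.55% at an unadjusted p under 0.05), and 6.01% and 5.83% in Cre- (16.05% and 14.97%). Of 53 ribosomal protein genes tested in Cre+, 0 were enriched and 5 depleted (edgeR, with 0 and 28 at an unadjusted p under 0.05), and their median log2 fold change was -1.49. Of 75 tested in Cre-, 0 were enriched and 24 depleted (edgeR, with 0 and 43 at an unadjusted p under 0.05), and the median was -0.99. Rps15 had the smallest FDR among them in Cre-, from 94.7 ± 14.3 (SD, n = 3) normalized counts in the input to 26.0 ± 1.26 in the pull-down (log2 fold change -1.87, standard error 0.20, edgeR, FDR = 9.61e-05), and Rplp2 in Cre+, from 9.44 ± 5.06 to 1.17 ± 0.443 (edgeR, FDR = 0.0659). Of 19 protein-coding hosts of small nucleolar RNAs, 0 were enriched under either label (edgeR, with 1 higher and 6 lower in each at an unadjusted p under 0.05). In Cre+ 3 were depleted (the initiation factor genes Eif4a1 and Eif4a2 and the chaperone gene Hspa8) and in Cre- 2 (Tpt1 and Rpsa), with medians of -0.76 and -0.56. Of the paraspeckle protein genes, which encode partners of Neat1, 10 were tested in Cre+ and 11 in Cre- and none was called (edgeR, with 0 higher and 3 lower in Cre+ and 2 higher and 1 lower in Cre- at an unadjusted p under 0.05, medians -0.52 and 0.16). From the Dlk1-Dio3 region only Ppp2r5c was tested in Cre+, at 0.49, and 3 coding genes were tested in Cre-, and none was called (edgeR, 0 and 1 at an unadjusted p under 0.05).

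Levels of the RNAs can be set against each other only per length, and their order depends on the length used. In the Cre+ inputs, normalized counts per kilobase of the longest annotated transcript were 137 ± 25.6 (SD, n = 3) for Malat1, 75.7 ± 49.4 for Gas5, 25.8 ± 23.5 for Snhg1, 10.4 ± 2.62 for Snhg11, 8.13 ± 1.39 for Rian, 3.85 ± 0.744 for Meg3, 2.02 ± 1.11 for Miat and 0.111 ± 0.0609 for Neat1. The ranges of mean ± SD overlap for Malat1 and Gas5, Gas5 and Snhg1, Snhg1 and Snhg11, Snhg11 and Rian, and Meg3 and Miat, and not for Rian and Meg3 or for Miat and Neat1. In the Cre- inputs the order was the same, from 174 ± 16.4 for Malat1 to 0.115 ± 0.0841 for Neat1. With the length that the deposited FPKM imply, Snhg1 (154) stood above Malat1 (134) in the Cre+ inputs, where input 1 was the high one for Snhg1, and below it in the Cre- inputs (103 and 185). On that scale Meg3 (26.8) stood above Rian (16.6) and Snhg11 (9.94) in the Cre+ inputs, while Neat1 stayed lowest at 0.774 and Rn45s, which has a length only there, was at 9875.

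By their pattern over the 12 libraries, the genes most like Malat1 among those tested were Snhg11 (Pearson's r of log2 normalized counts 0.978), Zfp236 (0.977) and Meg3 (0.971), and those most like Meg3 were Zfp236 (0.983), Tnrc6c (0.978) and Malat1 (0.971). Those most like Gas5 were Tmeff2 (0.963), Arpc1b (0.953) and Rplp1 (0.949), and those most like Rn45s were S100a10 (0.963), Tmsb4x (0.949) and Stx8 (0.945). Among the 9 RNAs, r was 0.951 between Malat1 and Miat, 0.865 between Malat1 and Neat1, -0.303 between Malat1 and Snhg1 and -0.718 between Malat1 and Rn45s. The 12 libraries form 4 groups, so these values describe the pattern over groups and the stand-apart pull-downs as much as that within groups, and they carry no test.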

How the data were processed

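RNA of 12 libraries, 3 HA pull-downs and 3 inputs per genotype label, was taken as deposited. The authors aligned reads to mm10 with STAR and deposited, per genotype, whole-number counts of uniquely mapped fragments per gene (HTSeq, refFlat annotation), with no normalization. Each deposited table also gives the authors' mean FPKM over its libraries, used here only as a filter (above 1) and to infer gene length. Columns of the authors' own log2 fold changes, p-values and FDR were not used, nor were 18 per-sample columns of derived values. The submitters' processing notes name CASAVA 1.8.2 and edgeR. The columns of the Cre+ libraries were assigned to their group only, because names of Cre+ pull-down columns are close to titles of Cre- pull-down samples, so their numbers only tell libraries apart.

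Counts were tested with edgeR 4.0.16 (TMM, robust glmQLFit, glmQLFTest, R 4.3.3) on the 6 libraries of a genotype, and the difference of both enrichments in 12 libraries. The Benjamini-Hochberg adjustment ran over all genes tested, and the standard error is the log2 fold change divided by the square root of F. Because each sample is a pool of mice, p-values measure the spread between pools. The fits were tested on simulated data. The members and lists were chosen with earlier results of these data known. All members are named, as are the other listed noncoding RNAs called under either label, at most 4 called genes per coding list, and the 3 genes most like Malat1, Meg3, Gas5 and Rn45s. Alternatives were DESeq2 1.42.0, the exact test, other filters and scalings, all libraries in one fit, a replicate block (Cre-) and each library left out. Annotation was RefSeq and GENCODE M21 on GRCm38. Counts per library ranged from 8886308 to 18633365. PCR copies could not be removed by identifiers, so intervals cover counting error only. Figures were drawn with matplotlib 3.10.9.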

Additional observations from a re-analysis of the deposited data

Results flagged for a closer look

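The enrichment of Meg3 in the pull-down differed between the labels by 2.77 on the log2 scale (Cre+ minus Cre-, edgeR's test of the difference, FDR = 0.0689), with 3 of 3 pull-downs above all inputs under both labels. That of Rian differed by 1.87 (edgeR, FDR = 0.0402), with 3 of 3 pull-downs above all inputs in Cre+ and 3 of 3 below all inputs in Cre-. Both calls were lost when certain single libraries were left out, for Meg3 any single input. Without Cre+ pull-down 1 the difference of Meg3 was 1.53.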

How the results depend on the processing

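Of the 9 noncoding RNAs, the 4 enriched in Cre+ became 6 with the exact test and in the fit of all 12 libraries (Neat1 and Miat gained), 5 with DESeq2, 3 with upper-quartile and both library-size scalings (Rian lost), 2 at an FDR of 0.05, and 0 to 5 with 1 library left out (0 without Cre+ input 1 or 3, with edgeR). The 0 depleted became 1 with library-size scaling, with or without Rn45s, and without a fold limit (Rn45s), and 1 in the fit of all 12 libraries (Snhg1). In Cre- the 1 enriched became 2 with the exact test, 0 with library-size scaling of either kind and in the fit of 12, and 0 to 2 with 1 library left out, and the 2 depleted became 1 in the fit of 12 (Snhg1 lost). The 2 that differed became 4 with DESeq2 and without both pull-downs numbered 1, 1 at an FDR of 0.05, and 0 to 5 with 1 library left out. The 7 higher in the Cre+ pull-downs became 1 with the 6 pull-downs alone. Gas5 in Cre+ turned to 0.10 without Cre+ input 1 (range with 1 library left out -1.11 to 0.10), and in Cre- Neat1 turned to -0.72 (range to 1.30) and Snhg11 to -0.22 (range to 0.96) without Cre- pull-down 1. The difference of Snhg1, 0.01, was -0.13 with upper-quartile scaling, -0.22 with library-size scaling, -0.25 with that scaling without Rn45s, and between -0.45 and 1.08 with 1 library left out. The cause of these changes was not tested. Neat1 passed the Cre+ filter only through its pull-downs, so it had to be higher there to be tested. It passed the filter of the fits of all 12 libraries only through pull-downs too. DESeq2 gave no adjusted p for Malat1 in Cre+ or for its difference, so those DESeq2 counts are over the other 8 RNAs.

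All genes enriched and depleted in Cre+, 422 and 196, were 1103 and 568 with DESeq2, 786 and 457 with the exact test, 249 enriched with upper-quartile scaling, 192 and 699 with library-size scaling, 191 and 876 with that scaling without Rn45s, 1250 and 948 in the fit of 12, 139 and 26 at an FDR of 0.05, and 4 to 803 and 0 to 540 with 1 library left out. In Cre-, 693 and 672 were 429 and 1238 with library-size scaling, 399 and 1358 without Rn45s, 270 and 175 in the fit of 12, 1502 and 1284 without a fold limit, and 575 to 817 and 525 to 1060 with 1 library left out. For the difference, 209 and 182 were 612 and 428 with DESeq2, 85 higher in Cre+ with upper-quartile scaling, 72 and 275 with library-size scaling, 73 and 295 without Rn45s, 689 and 592 without both pull-downs numbered 1, 35 and 60 at an FDR of 0.05, and 13 to 713 and 30 to 694 with 1 library left out. Library-size scaling moved the median log2 fold change of all genes from 0.08 to -0.36 in Cre+ and from -0.04 to -0.27 in Cre-, and the share of genes higher in the pull-down from 53.0% to 36.3% and from 47.5% to 33.3%. The replicate block in Cre- gave 704 enriched and 792 depleted genes, with 1 enriched and 2 depleted of the 9 RNAs as before. Same-numbered pull-down and input deviations in Cre- correlated with r of 0.0674, 0.0284 and 0.124. Each lay above the r of all unlike numbers (-0.110 to 0.0248). The main test did not take the numbers as pairs, and these values do not show that pairs are absent. No block was possible in Cre+ because the columns carry no sample. Neat1 had 10 to 57 counts per input.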
